A study of Homo sapiens with 3 samples.

Results

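The family of miR-204 and miR-211 consists of the miRNAs cut from the hairpins MIR204 and MIR211. Its members were taken by name, written below without the prefix for human: hsa-miR-204-5p, hsa-miR-204-3p and hsa-miR-211-5p, 3 of the 2588 human mature miRNAs listed with read counts. The cells were SK-MEL-2, an established human melanoma line, kept in RPMI-1640 with 10% serum. The 3 groups were a control without treatment and cultures exposed to a plasma jet (a cool, partly ionised gas flow) for 3 min or 5 min; RNA was collected on Day 2. Each group was 1 small-RNA library of bulk cells, so the values below carry no replicate error, and each comparison is between libraries rather than conditions.

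Both hairpins lie within genes of melastatin-type ion channels, MIR204 in TRPM3 and MIR211 in TRPM1. A mature miRNA is loaded into an Argonaute protein and represses mRNAs that pair with its seed, bases 2 to 8 from the 5′ end. In melanocytes the lineage factor MITF drives TRPM1 and with it miR-211, which is known for repressing the transcription factor gene POU3F2 (BRN2); miR-211 is reduced in many melanomas. miR-204 is known above all from the pigment epithelium of the retina.

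The RefSeq sequences (GRCh38.p14) are shown because the shared seed defines the family, and the near-identity of the 5p arms limits how well their counts can be separated. Capitals mark bases 2 to 8.

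miR-204-5p: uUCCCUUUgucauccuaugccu
miR-211-5p: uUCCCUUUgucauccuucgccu
miR-204-3p: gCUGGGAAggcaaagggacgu
miR-211-3p: gCAGGGACagcaaaggggugc

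The 5p arms shared 20 of 22 bases, differing by A17U and U18C (the miR-204-5p base first, counted from the 5′ end), outside the seed. No other listed miRNA with a RefSeq sequence had the seed UCCCUUU. A counting step that tolerates mismatches could give reads of 1 of these arms to the other, so their separate values are uncertain. The 3p arms matched at 15 of 21 positions, and U3A and A8C fell within bases 2 to 8, so the 3p arms have different seeds. The hairpins are shown in full, with the mature arms in capitals, to place the 4 arms.

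MIR204: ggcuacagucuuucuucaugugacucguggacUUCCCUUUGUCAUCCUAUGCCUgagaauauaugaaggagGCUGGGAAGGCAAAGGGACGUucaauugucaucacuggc
MIR211: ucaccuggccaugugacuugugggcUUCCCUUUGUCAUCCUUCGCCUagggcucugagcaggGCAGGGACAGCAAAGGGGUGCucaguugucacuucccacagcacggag

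MIR204 lies on the minus strand at chr9:70809975-70810084 and MIR211 on the minus strand at chr15:31065032-31065141. In GENCODE release 29, MIR204 was intronic in all 13 TRPM3 transcripts that span it, and MIR211 in all 8 TRPM1 transcripts that span it. Each hairpin was the only annotated miRNA gene within its host, and host and hairpin shared a strand. Both hairpins are 110 bases long, and 41 single-base edits separate them.

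Library totals were 1045482 (control), 966943 (3 min) and 615645 (5 min) counts, making a read worth 0.956, 1.03 and 1.62 CPM (counts per 1000000 counts of the library). Levels below are CPM after TMM scaling, with exact 95% intervals that cover counting error only. miRNAs whose counts averaged 20 or more across the libraries were called measured, 231 in all; each of the 3 members was, with at least 20 counts in every library. The miR-506 to miR-514 miRNAs, a cluster of the X chromosome typical of melanocytic cells, had 0 counts in every library for all 7 arms looked for (miR-506-3p, miR-507, miR-508-3p, miR-509-3p, miR-510-5p, miR-513a-5p and miR-514a-3p). With a floor of 3 counts for a 0, each could have stood at up to 2.87, 3.10 and 4.87 CPM, here without TMM scaling. Of the lineage's markers, this set was not detected, and counts were assigned to miR-211-5p, with the uncertainty given above.

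miR-204-5p was by far the leading arm of the family. It was counted 2608 times without treatment, 2535 times with the shorter and 1257 times with the longer exposure. Scaled levels were 2493 CPM (2399 to 2591) in the control, 2645 (2543 to 2750) at 3 min and 2025 (1915 to 2140) at 5 min. The control and 3 min libraries had overlapping intervals, and the 5 min library lay below both. miR-204-5p ranked 38 by count in the control and after 3 min, and 43 after 5 min. Its share of a library was 0.249% for the control (0.240 to 0.259), 0.262% for 3 min (0.252 to 0.273) and 0.204% for 5 min (0.193 to 0.216).

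miR-211-5p, the arm tied to TRPM1 and MITF, was scarce. The control held 128 counts of it, the 3 min library 97 and the 5 min library 65. Its scaled level was 122 CPM (102 to 145) in the control, 101 (82.1 to 123) at 3 min and 105 (80.8 to 133) at 5 min. The control was nominally highest, and all 3 intervals overlapped. Its rank by count was 120 in the control, 136 at 3 min and 139 at 5 min.

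miR-204-3p, the minor arm that is mostly degraded when the 5p arm is loaded, was counted 38 times in the control, 54 times at 3 min and 20 times at 5 min. Scaled, that was 36.3 CPM (25.7 to 49.9), 56.3 (42.3 to 73.5) and 32.2 (19.7 to 49.8). The 3 min library was the highest of the 3, although its interval overlapped both others. miR-211-3p, the corresponding minor arm of MIR211 and not a member, had 0 counts in every library.

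**Figure D1:**
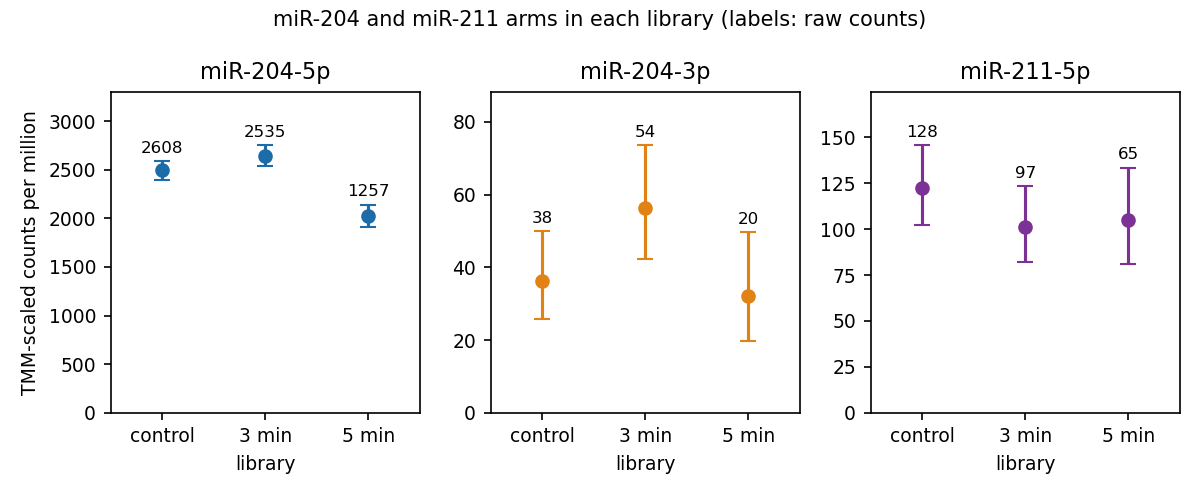
Level of each member (TMM-scaled CPM, axes from 0, a separate axis for each miRNA) in the 3 libraries; points are single libraries, bars are exact 95% counting intervals, and the number over each bar is the raw count. miR-204-5p was lowest after 5 min with 1257 counts, the miR-211-5p intervals overlapped across all libraries, and miR-204-3p was highest after 3 min with 54 counts.

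The order of the members was the same in each library: miR-204-5p, then miR-211-5p, then miR-204-3p, with intervals that did not overlap between the members within any library. Per count of miR-211-5p, miR-204-5p had 20.4 in the control, 26.1 in the 3 min and 19.3 in the 5 min library. Ligation favours some RNA ends over others, so these are ratios of reads, not of molecules; mature arms are similar in length, and no length correction was made. miR-211-5p made up 4.68% of the summed 5p arms in the control (3.92 to 5.54), 3.69% at 3 min (2.999 to 4.48) and 4.92% at 5 min (3.81 to 6.22). The share was lowest after 3 min, and the 3 intervals overlapped.

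The seed UCCCUUU, supplied by miR-204-5p and miR-211-5p together, summed to 2736, 2632 and 1322 counts in the same order of libraries. Among seed families, formed from all listed miRNAs with a RefSeq sequence, it ranked 25 of the 474 with a count in the control, 24 of 498 at 3 min and 26 of 548 at 5 min. The sequences matched covered 98.4% to 98.6% of the counts of each library. Ranked singly, the nearest miRNAs above miR-204-5p in the control were miR-26b-5p with 2972 counts, miR-30c-5p with 3019 and miR-455-5p with 3136. Those just below it were miR-92a-3p with 2593, miR-30a-5p with 2473 and miR-98-5p with 2472. Of these 6, miR-455-5p had a 5 min log2 ratio to control of -0.29 (-0.38 to -0.21), against -0.30 for miR-204-5p, while miR-30a-5p was at 0.38 (0.29 to 0.46). Between them were miR-26b-5p at 0.24, miR-30c-5p at 0.11, miR-98-5p at -0.11 and miR-92a-3p at -0.19. The value of miR-204-5p was thus nominally below all 6.

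Against the control, the members of the family were on both sides of 1 in the 3 min library. miR-204-5p was 1.06-fold higher (1.004 to 1.12), miR-211-5p 1.21-fold lower (0.922 to 1.59) and miR-204-3p 1.55-fold higher (1.01 to 2.41). Only miR-204-3p was at least 1.5-fold from control. At that size 6.93% of the 231 measured miRNAs were higher and 5.19% lower; the 1 member of 3 was a scarce arm with 54 counts against 38. It reached 1.5-fold in 4 of the 6 scalings (TMM over measured miRNAs and 5 alternatives), and in 5 of the 6 its interval included no difference. In 5 of the 6 scalings the interval of miR-204-5p also included no difference, and its log2 ratio ranged from 0.01 to 0.09. The interval of miR-211-5p included no difference in all 6 scalings. Relative to the median of all measured miRNAs, the log2 differences were 0.03 for miR-204-5p, -0.32 for miR-211-5p and 0.58 for miR-204-3p. In the main scaling the intervals of miR-204-5p and miR-204-3p lay wholly above 1, as did those of 23.4% of all measured miRNAs, and of 43.1% of the 58 that averaged 1000 counts or more. No member reached 2-fold, as did 3.03% of measured miRNAs.

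At the longer exposure all 3 members had log2 ratios to control below 0, in each of the 6 scalings. miR-204-5p was 1.23-fold lower (1.15 to 1.32), a log2 ratio of -0.30 (-0.40 to -0.20). miR-211-5p was 1.17-fold lower (0.861 to 1.60) and miR-204-3p 1.13-fold lower (0.640 to 2.05), and neither interval excluded no difference. The depth of these arms leaves a 1.5-fold lower level of either within its interval. Taken from the median of all measured miRNAs, a difference that is the same in every scaling, the log2 values were -0.35 for miR-204-5p, -0.27 for miR-211-5p and -0.22 for miR-204-3p.

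Only the miR-204-5p interval lay wholly below 1, as did those of 26.0% of measured miRNAs. Among the 58 abundant miRNAs, 55.2% lay wholly below 1, and miR-204-5p ranked 46 from the highest ratio. The lower quartile of these 58 log2 ratios was -0.29 and their SD 0.37. The 5 min value of miR-204-5p was thus near the lower quartile of miRNAs of its abundance class. No member was 1.5-fold from control, whereas 17.3% of measured miRNAs stood 1.5-fold or more above it and 11.7% as far below; 13.0% were 2-fold away in either direction, again with no member. With bulk RNA, fewer cells with a miRNA and less of it per cell cannot be told apart.

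**Figure D2:**
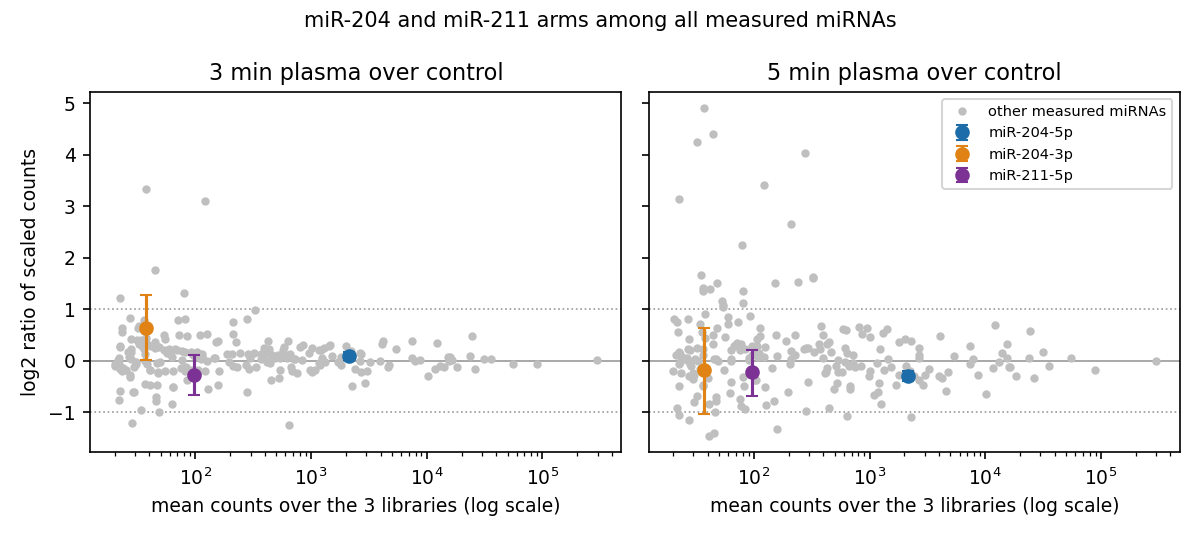
Log2 ratio to control of each measured miRNA after 3 min (left) and 5 min (right) against its mean counts over the 3 libraries (log axis); grey points are the other measured miRNAs, coloured points the members with exact 95% counting intervals, dotted lines 2-fold. No member lies beyond 2-fold, and miR-204-5p at -0.30 after 5 min sits among miRNAs of like abundance.

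Between the exposures, miR-204-5p was 1.31-fold lower after 5 min than after 3 min (1.22 to 1.40), and miR-204-3p was 1.75-fold lower (1.03 to 3.08). Both intervals excluded no difference in all 6 scalings. miR-211-5p had a log2 ratio of 0.05 (-0.43 to 0.52), positive in 4 scalings and negative in 2. Of measured miRNAs, 8.66% were 1.5-fold lower or more and 13.0% as far higher, with miR-204-3p among the lower on 20 counts against 54; past 2-fold were 7.36%, and no member. Of all measured miRNAs 24.7% had an interval wholly below 1, and of the 58 abundant ones 58.6% did. In this pair the log2 ratio of miR-204-5p, -0.39, lay below the lower quartile of those 58, -0.22.

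Summing the 5p arms, which removes any exchange of reads between them, gave a seed total 1.05-fold higher at 3 min (0.995 to 1.11), 1.23-fold lower at 5 min (1.15 to 1.31) and 1.29-fold lower at 5 min than at 3 min (1.21 to 1.38). These are close to the values of miR-204-5p, which supplied most of the counts.

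Ratios within the family need no scaling between libraries. The ratio of miR-211-5p to miR-204-5p was 0.780 times that of the control after 3 min (conditional exact 95% interval 0.589 to 1.03) and 1.05 times after 5 min (0.763 to 1.44). From 3 min to 5 min it was 1.35 times as high (0.964 to 1.88). No interval excluded 1. Pairs of measured miRNAs sharing bases 2 to 8 were formed only among the 206 with a RefSeq sequence. There were 92, this one included and many sharing a member. Over these, the median size of such a change was 0.14 on the log2 scale after 3 min. That of miR-204-5p with miR-211-5p was 0.36, and 12 pairs, itself included, moved at least as far. After 5 min the pair's change was 0.08 against a median of 0.26. Between 3 min and 5 min it was 0.43 against 0.17, and 11 pairs, itself included, moved at least as far. Many of the 92 pairs joined 5p arms of let-7, each with more than 1000 counts in every library. With 128, 97 and 65 counts of miR-211-5p, the pair of the family carried more counting error than those.

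The balance of the miR-204 arms leaned heavily to 5p. miR-204-3p made up 1.44% of the counts of both arms in the control (1.02 to 1.97), 2.09% at 3 min (1.57 to 2.71) and 1.57% at 5 min (0.959 to 2.41). All 3 intervals overlapped. Over the 49 pairs of measured arms whose names differed only in 5p and 3p, the minor arm took a median of 9.66% in the control. Of the 49, 8, miR-204 included, were at or below 1.44%. Measured arms with a locus number in 1 name only were not paired, such as let-7f-1-3p with let-7f-5p and miR-16-1-3p with miR-16-5p. The 8 therefore do not cover every hairpin with both arms measured. Hairpins whose minor arm averaged below 20 counts, MIR211 among them, were left out, so this set favours larger minor-arm shares.

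The ratio of miR-204-3p to miR-204-5p was 1.46 times that of the control after 3 min (0.944 to 2.28), 1.09 times after 5 min (0.599 to 1.93) and, from 3 min to 5 min, 0.747 times (0.422 to 1.28). Every one of these intervals included 1. In size, the 3 min change was 0.55 on the log2 scale against a median of 0.25 over the 49 arm pairs, of which 6, itself included, moved at least as far; the 5 min change was 0.13 against 0.30, and that between the exposures 0.42 against 0.38, with 21 pairs at least as far.

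**Figure D3:**
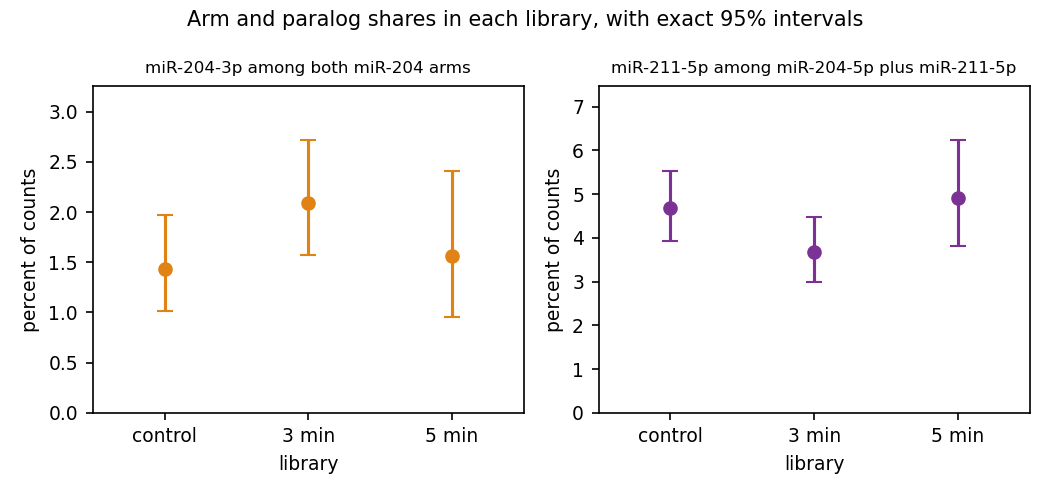
Share of miR-204-3p among both miR-204 arms (left) and of miR-211-5p among the summed 5p arms (right), in percent of counts, by library; bars are exact 95% binomial intervals. The 3p share was highest after 3 min at 2.09%, the miR-211-5p share lowest after 3 min at 3.69%, and within each panel all intervals overlap.

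For MIR211 only the 5p arm was seen. With 0 counts, miR-211-3p could have made up as much as 2.34% of the MIR211 counts in the control, 3.09% at 3 min and 4.62% at 5 min. At the arm balance of miR-204 the same libraries would have held 1.87, 2.07 and 1.03 counts of it. Each value is below the 3 counts that a 0 allows, so no single library separates such a balance from a lower share. The 3 libraries were not pooled for this comparison.

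**Figure D4:**
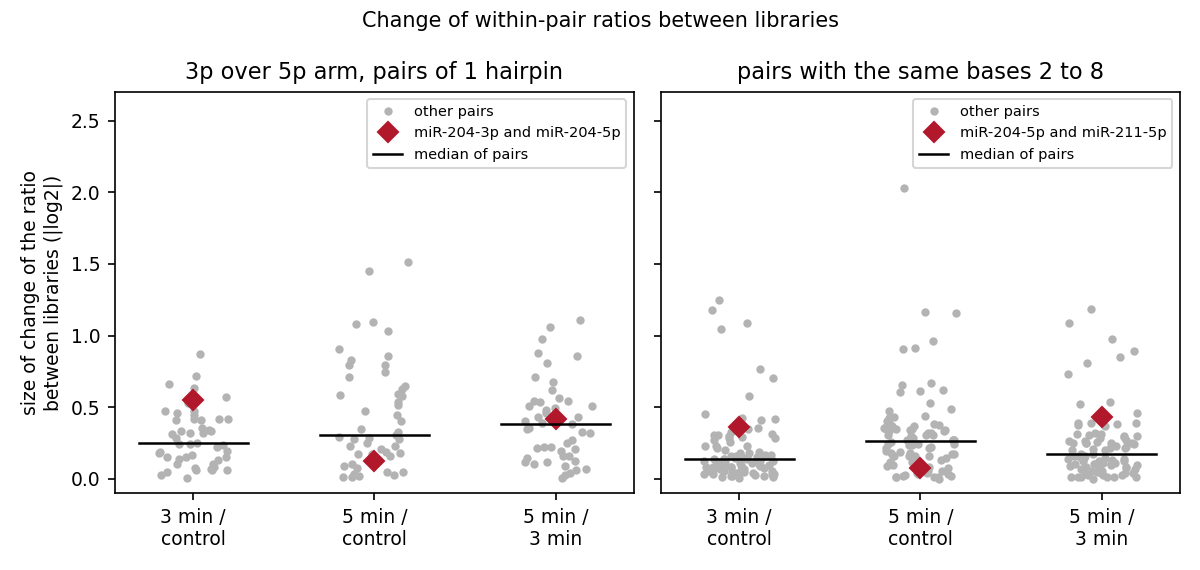
Size of the change of the ratio within a pair between 2 libraries (absolute log2), for the 49 arm pairs (left) and the 92 pairs with the same bases 2 to 8 (right); grey points are other pairs, diamonds the pair of the family, black lines the median of all pairs. After 3 min both family pairs lie above the median, and after 5 min both lie below it.

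The 5 measured miRNAs nearest to miR-204-5p in their pair of log2 ratios to control, over these 3 libraries, were miR-3065-3p, let-7b-5p, miR-140-5p, let-7e-3p and miR-335-3p. Their Euclidean distances were 0.07 to 0.09, against a median of 0.54 over 230 miRNAs. miR-140-5p, for example, had 4968, 4565 and 2406 counts, log2 ratios of 0.004 after 3 min and -0.29 after 5 min. The other family members were farther off: miR-211-5p ranked 72 at a distance of 0.37 and miR-204-3p ranked 125 at 0.56, on far fewer counts. At both exposures the counting intervals of these members included the log2 ratio of miR-204-5p, so the distances are not resolved. Among the 5 nearest, let-7e-3p was also scarce, with 33, 34 and 16 counts. The first of them, miR-3065-3p, had 126, 123 and 58 counts, about as few as miR-211-5p.

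miRNAs known to repress MITF, the factor upstream of TRPM1, were taken as a list of 9, of which 6 were measured. Their median log2 ratio was -0.12 after 3 min and -0.04 after 5 min, against 0.05 for all measured miRNAs at either exposure, and it was below 0 in all 6 scalings. miR-340-5p, the most abundant of them, had 4145, 2830 and 1775 counts, log2 ratios of -0.42 (-0.49 to -0.36) at 3 min and -0.47 (-0.55 to -0.39) at 5 min. miR-148b-3p, with 1423, 1271 and 821 counts, was at -0.04 after both exposures, with intervals of -0.15 to 0.07 and -0.17 to 0.08. miR-101-3p was on the other side, with 864, 974 and 739 counts and log2 ratios of 0.30 (0.17 to 0.43) and 0.53 (0.38 to 0.67). miR-155-5p stood at 0.04 (-0.10 to 0.18) and 0.12 (-0.04 to 0.28).

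At neither exposure was any of these 6 as much as 1.5-fold higher, and 1 was at least 1.5-fold lower, miR-148a-3p after 3 min, with 17 counts against 43; in some scalings 1 member of the list was also that far below after 5 min. Among all measured miRNAs the shares were 6.93% higher and 5.19% lower after 3 min, 17.3% and 11.7% after 5 min, so these counts are near the background. miR-218-5p, at 139, 110 and 64 counts, was the one nearest in level to miR-211-5p. miR-137 had 0 counts in every library, and miR-182-5p (4, 5 and 15 counts) and miR-145-5p (1, 2 and 0) were below the count minimum. miR-148a-3p and these last 4 were picked out with their values in view.

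The list of melanocyte and melanoma miRNAs other than the family had 7 of 17 measured. The median log2 ratio was 0.25 after 3 min and 0.54 after 5 min, above 0 in all 6 scalings, against 0.05 for all measured miRNAs at either exposure. Its most abundant member, miR-21-5p, an oncogenic miRNA of many tumours, was at 0.02 (0.02 to 0.03) and -0.007 (-0.014 to 0.001), with signs that changed with scaling. miR-221-3p was above control at both exposures, at 0.49 (0.46 to 0.51) and 0.57 (0.54 to 0.60). miR-222-3p, made from the same primary transcript and like miR-221-3p a repressor of the cell-cycle inhibitor CDKN1B, was at 0.38 (0.33 to 0.44) and -0.34 (-0.42 to -0.27). miR-30d-5p was at 0.05 (0.01 to 0.10) and -0.06 (-0.11 to -0.01), the first with a sign that changed with scaling.

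After 5 min the miR-204-5p value of -0.30 was thus on the same side of 0 as miR-222-3p and the opposite side to miR-221-3p. Of the 7, 2 were at least 1.5-fold higher after 5 min, beside 17.3% of all measured miRNAs, and in some scalings 0 were. They were miR-31-5p at 0.62 (0.51 to 0.73) and miR-30b-5p at 0.68 (0.47 to 0.89), both picked out with their values in view.

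**Figure D5:**
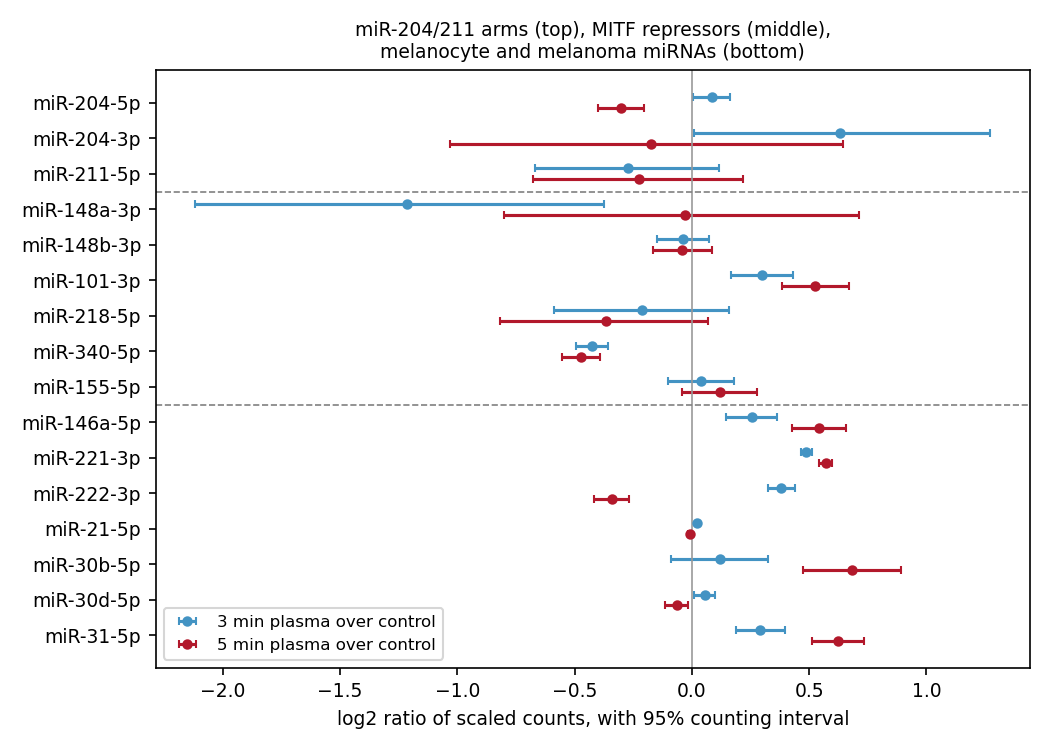
Log2 ratio to control after 3 min (blue) and 5 min (red), with 95% counting intervals, for the measured miR-204 and miR-211 arms (top), miRNAs known to repress MITF (middle) and other melanocyte and melanoma miRNAs (bottom). After 5 min miR-204-5p at -0.30 lies below 0 with its whole interval, as do miR-340-5p at -0.47, miR-222-3p at -0.34 and miR-30d-5p at -0.06.

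Markers of other cell types were read beside these values, as summed scaled CPM in control, 3 min and 5 min. The keratinocyte list of 4 summed to 7.65, 13.6 and 35.4 (8, 13 and 22 counts), with the defining miR-205-5p at 0 in every library. The blood list of 5 came to 9.56, 16.7 and 16.1 (10, 16 and 10 counts), with miR-223-3p at 0. The fibroblast list of 5, nearly all of it miR-199a-3p, summed to 4171, 5232 and 5830.

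The neural list of 4, nearly all of it miR-9-5p, summed to 17769, 16662 and 19015, with the neuronal miR-124-3p at 0. Its members did not move alike: after 5 min miR-9-5p stood at 0.15 (0.12 to 0.19) on the log2 scale, with a sign that changed with scaling, while miR-128-3p at -0.60 (-0.75 to -0.46) and miR-129-5p at -0.61 (-0.96 to -0.27) were on the same side of 0 as miR-204-5p. The list's median over 3 measured members was -0.60, and 2 of the 3 were 1.5-fold lower or more, against 11.7% of measured miRNAs. The keratinocyte, fibroblast and neural sums were highest in the library where miR-204-5p was lowest, the neural one only in scalings that keep miR-9-5p above 0; the part of these markers in that value was not tested.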

How the data were processed

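Small RNA from 3 SK-MEL-2 libraries (NEBNext small-RNA kit, per the labels' protocols) was deposited by the authors as raw read counts for 2588 mature miRNAs. The submitters' processing notes name Bowtie2, bedtools and edgeR; for the build, miRNA annotation, mismatches, multi-mapping and strand use, the treatment is not given in the sources used here. The counts hold no molecular identifiers, so intervals and floors (3 counts for a 0) cover counting error only.

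Libraries were scaled by TMM (edgeR 4.0.16, R 4.3.3) over the 231 miRNAs averaging 20 counts or more; factors were 1.000, 0.991 and 1.008. Ratios carry exact Clopper-Pearson 95% intervals from the split of counts between libraries; odds ratios carry conditional exact intervals (scipy 1.17.1). With 1 library per group there was no significance test and no p-value. The ratio step was tested on counts simulated with counting error only and known library totals. That test covers neither the scaling nor the spread between replicates. Alternatives were 5 other scalings (library total, with and without the 10 most abundant miRNAs; TMM over all listed miRNAs; DESeq2 1.42.0 size factors over all or over measured miRNAs), 3 other count filters and summed 5p arms.

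Named miRNAs were the arms, the 3 neighbours on each side of miR-204-5p in control count, the 5 most alike in log2 ratios, and the most abundant members of fixed lists. Members and lists were chosen with earlier results of these data known. RefSeq held sequences for 2281 of the listed names; positions are from its GRCh38.p14 table, not from the deposited files.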

Additional observations from a re-analysis of the deposited data

How the results depend on the processing

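For the members' 9 log2 ratios, 47 of 51 alternative values lay within the counting interval of the reported value. The other 4 concern miR-204-5p, whose log2 ratio of 5 min plasma to control was -0.47 with TMM and -0.51 with DESeq2 size factors over all listed miRNAs, and whose log2 ratio of 5 min to 3 min was -0.50 and -0.52. These settings shifted every 5 min log2 ratio to control by -0.17 and -0.21, the whole of the difference. No scaling shifted any log2 ratio further, and the miR-211-5p and miR-204-3p intervals reach farther than this on either side. Their values under the other scalings therefore lay inside by interval width alone. For these arms the 47 of 51 is no measure of robustness. Counts of miRNAs at least 2-fold apart followed the count filter. For 3 min against control there were 7, becoming 35 at a mean of at least 5 counts, 2 at 100 and 398 with no filter; for 5 min against control 30, becoming 87, 10 and 514; for 5 min against 3 min 17, becoming 76, 5 and 492. Without a filter a miRNA at 0 in 1 library counts as past 2-fold. The split into higher and lower, 22 and 8 for 5 min against control, became 18 and 16 with TMM and 18 and 17 with DESeq2 over all listed miRNAs; in the same settings 5 and 2 for 3 min became 5 and 4, and 15 and 2 between exposures became 14 and 4, then 14 and 5. No paired analysis was possible because each group held 1 library. Depth limits miR-211-5p and miR-204-3p, whose counts of 20 to 128 leave 1.5-fold lower levels after 5 min inside their intervals.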

Other observations

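Of the miRNAs of retina and pigment epithelium listed beside miR-204, 1 of 4 was measured. This was miR-184, abundant in lens and cornea, counted 22 times in the control, 36 times at 3 min and 23 times at 5 min. Its log2 ratio to control was 0.84 (0.03 to 1.67) after 3 min and 0.82 (-0.09 to 1.73) after 5 min. The sensory-neuron cluster was below the count minimum, with 4, 5 and 15 counts of miR-182-5p, 6, 5 and 12 of miR-183-5p and 0, 1 and 2 of miR-96-5p.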
